A study of Homo sapiens with 10 samples.

Results

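Genes that make, store and recapture catecholamines and acetylcholine were followed in human stem cell-derived sensory neuron cultures. The genes were chosen by their symbols and are 10 of the 30357 named genes of the deposited tables. They are TH, DDC, DBH, PNMT, SLC18A1, SLC18A2 and SLC6A2 for catecholamines, and CHAT, SLC18A3 and SLC5A7 for acetylcholine. All 10 were found in the tables of all 10 libraries, and all 10 passed the filter on low counts.

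The cultures were derived from the established human line RUES2, embryonic stem cells edited to carry tdTomato, a red fluorescent protein, at AVIL, the gene of advillin. All libraries share this line and this reporter and were taken on day 60 in vitro. They differ in the differentiation protocol, which was meant to bias the neurons toward nociceptors (pain-sensing, 4 libraries), mechanoreceptors (low-threshold touch, 3 libraries) or proprioceptors (muscle stretch, 3 libraries). Libraries are numbered here by the replicate number of their labels. The labels call the libraries biological replicates but leave unsaid whether these were separate differentiations. The p-values thus reflect a spread among libraries that may be one among cultures of the same differentiation. The labels are also silent on sorting of cells by the reporter.

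Catecholamines are made in a chain of enzymes. Tyrosine hydroxylase (TH) makes L-DOPA, DOPA decarboxylase (DDC) makes dopamine, dopamine beta-hydroxylase (DBH) makes noradrenaline, and PNMT turns that into adrenaline. The vesicular monoamine transporters SLC18A2 and SLC18A1 load the product into vesicles, and SLC6A2 takes noradrenaline back up. Acetylcholine is made by choline acetyltransferase (CHAT), loaded by SLC18A3 and sustained by choline uptake through SLC5A7. Sympathetic neurons use noradrenaline and in a minority acetylcholine, whereas most somatosensory neurons release glutamate, and in mice TH also marks C-fibre low-threshold mechanoreceptors.

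Levels are given as TPM, an abundance relative to all transcripts of a library, corrected for transcript length and so comparable between genes. Named genes held 27891186 to 44541262 counts per library. The neurons were not alone in the cultures. Summed TPM of 10 Schwann and satellite glia markers ran from 270.1 to 6809, and of 14 mesenchyme markers from 20.0 to 3992. The highest for both lists were nociceptor libraries 1, 2 and 3, proprioceptor library 2 and mechanoreceptor library 3. The 15 pan-neuronal genes summed to between 5409 and 16067 TPM, with all 15 at 1 TPM or more in every library. In bulk RNA, fewer cells of a type and less RNA per cell cannot be told apart.

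TH was the most abundant of the 10 genes, with a mean of 202 TPM over the 10 libraries. SLC18A3 followed at 30.7 and DBH at 25.7. SLC18A2 (7.91), SLC5A7 (7.41), DDC (4.85) and CHAT (3.51) formed a middle range, and SLC6A2 (1.47), PNMT (1.20) and SLC18A1 (0.841) were low. TH and SLC18A3 reached 1 TPM in all 10 libraries, SLC18A2 and CHAT in 9, DDC and DBH in 8, SLC5A7 in 7, PNMT in 5, SLC6A2 in 4 and SLC18A1 in 2. The order is that of the means only, since neighbouring genes overlapped in range.

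**Figure D1:**
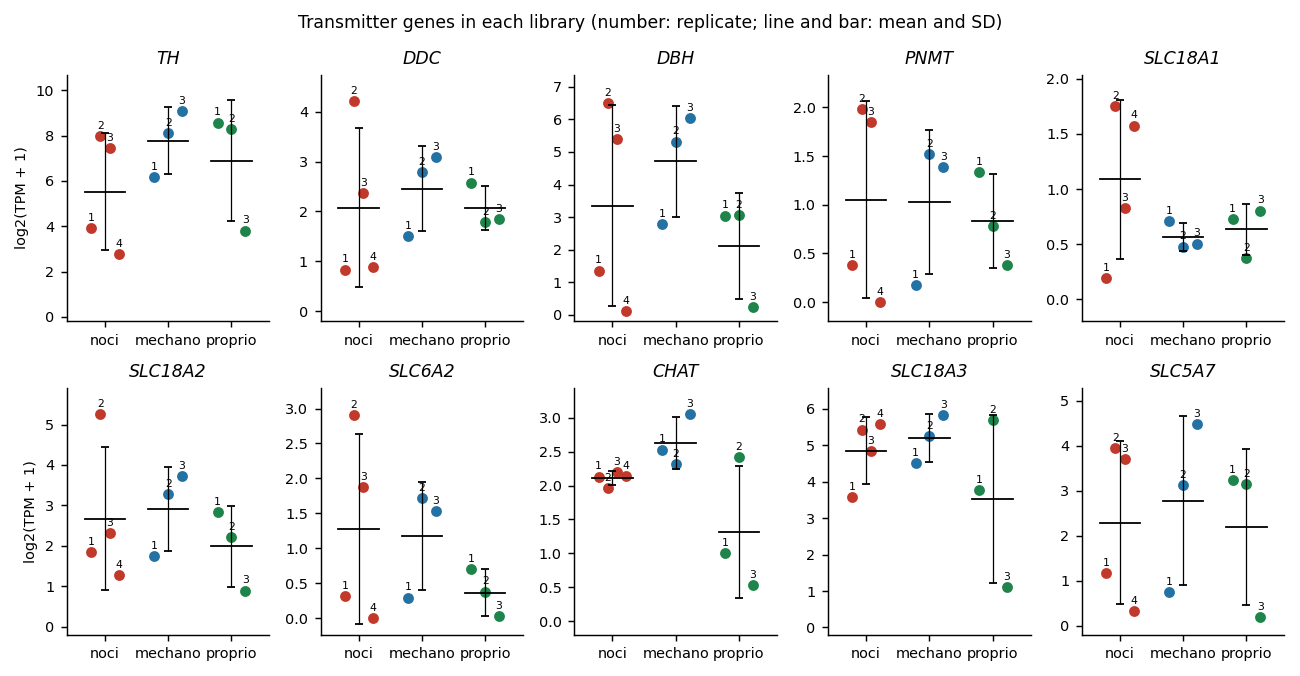
Level of each of the 10 genes in every library, as log2(TPM + 1), by protocol, with the replicate number above each point. Horizontal lines are means and bars are SD (n = 4 nociceptor, 3 mechanoreceptor, 3 proprioceptor libraries), and the points of the 3 protocols overlap for every pair of protocols except CHAT between nociceptor (2.89 to 3.58 TPM) and mechanoreceptor (3.96 to 7.28 TPM) libraries.

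TH, the rate-limiting enzyme of the pathway, lies on chromosome 11 at 2163929 to 2171815 (RefSeq, GRCh38.p14). In nociceptor libraries 1 to 4 it had 14.2, 248, 174 and 5.82 TPM. The mechanoreceptor libraries 1 to 3 had 70.9, 273 and 534 TPM, and those of the proprioceptor protocol had 378, 312 and 13.0 TPM. Each protocol thus held libraries with abundant TH, and 3 libraries (nociceptor 1 and 4, proprioceptor 3) stood low. The means were 111 ± 120.1 (SD, n = 4), 293 ± 232 (n = 3) and 234 ± 195 (n = 3), so that the SD was of the size of the mean. In mechanoreceptor library 3, TH ranked 224 among 30357 named genes by TPM, and in nociceptor library 4 it ranked 9802. The 91.8-fold range of TPM became 116-fold when TH was divided by the summed pan-neuronal TPM of its library. The SD of log2(TPM + 1) within protocols was 2.34, larger than in 99.5% of the 13941 genes with a mean of at least 1 TPM.

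Human TH is spliced in alternative forms at its 5′ end, and the transcript tables separate the main ones. Of 11 TH transcripts matched to GENCODE v29, TH-203 (mean 162 TPM) and TH-206 (32.7 TPM) carried most of the signal. The forms differ at their start, since TH-203 begins further upstream, at 2171877, than TH-206, at 2171805. TH-206 also holds 93 coding bases, or 31 codons, that TH-203 lacks, and this insert is shown because it is a coding difference between these forms. It joins 12 bases at the end of exon 1 (chr11:2171685-2171696), in capitals, to the 81 bases of exon 2 (chr11:2170690-2170770), in lower case, on the minus strand of GRCh38.
TH-206 insert: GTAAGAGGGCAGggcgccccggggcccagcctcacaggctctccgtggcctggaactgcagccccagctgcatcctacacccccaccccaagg

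TH-203 made up 82.5 ± 4.37% of both forms in nociceptor (SD, n = 4), 82.4 ± 1.32% in mechanoreceptor (n = 3) and 84.9 ± 1.83% in proprioceptor libraries (n = 3). Over all 10 libraries the share lay between 77.2% and 87.8%. The level of TH moved 91.8-fold over the same libraries. The lowest share, in nociceptor library 1, rests on 508 and 158 estimated counts, and the highest, in nociceptor library 4, on 169 and 25. The split between forms is an estimate from reads that mostly fit both, and the version of TH-203 in the tables differs from that of GENCODE v29.

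**Figure D2:**
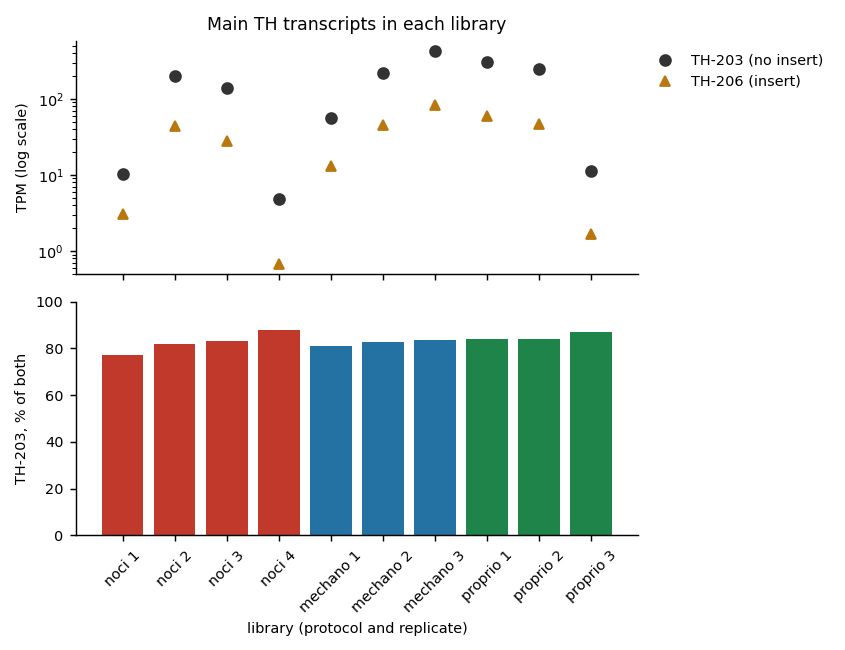
Upper panel: TPM (log axis) of TH-203, without the insert, and TH-206, with it, in each of the 10 libraries. Lower panel: TH-203 as a percentage of both, coloured by protocol, with 1 bar per library and no error bar, since each bar is 1 library. TH-203 spans 4.87 to 422 TPM, and the share stays between 77.2% and 87.8%.

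DDC, the decarboxylase that follows TH (chromosome 7, 50458442 to 50565405), had 0.788, 17.4, 4.16 and 0.848 TPM in nociceptor libraries 1 to 4. The mechanoreceptor libraries had 1.83, 5.89 and 7.51 TPM, the proprioceptor libraries 4.97, 2.46 and 2.58 TPM. Nociceptor library 2 was the highest, and the protocols overlapped. TH exceeded DDC in every library, by 5.01-fold in proprioceptor library 3 to 127-fold in proprioceptor library 2.

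DBH, the enzyme that commits the pathway to noradrenaline (chromosome 9, 133636363 to 133659329), had 1.56, 90.1, 40.8 and 0.0933 TPM in nociceptor libraries 1 to 4. It had 5.95, 38.9 and 64.9 TPM in mechanoreceptor and 7.26, 7.30 and 0.182 TPM in proprioceptor libraries. The lowest values rest on 5 counts in nociceptor library 4 and 12 counts in proprioceptor library 3. The libraries that were low for TH were also the 3 lowest for DBH. Its fold range, 966, and its SD of log2(TPM + 1) within protocols, 2.38 (larger than in 99.6% of genes), were the widest of the genes with a count in every library.

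The ratio of TH to DBH differed among libraries with similar TH. The nociceptor libraries had ratios of 9.11, 2.75, 4.28 and 62.4, and the mechanoreceptor libraries 11.9, 7.03 and 8.23. The proprioceptor libraries had 52.1, 42.7 and 71.3. Proprioceptor libraries 1 and 2 thus had TH (378 and 312 TPM) within the range of nociceptor libraries 2 and 3 and mechanoreceptor libraries 2 and 3 (174 to 534 TPM), with DBH at 7.26 and 7.30 TPM beside 38.9 to 90.1 TPM. The proprioceptor and mechanoreceptor ranges of the ratio did not overlap, while nociceptor library 4 lay within the proprioceptor range. This ratio was singled out from several ratios of these genes after its values were seen and is given as a description, with no test. Of all single genes, 5.89% had TPM ranges apart between proprioceptor and mechanoreceptor libraries, and the share among ratios was not measured.

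**Figure D3:**
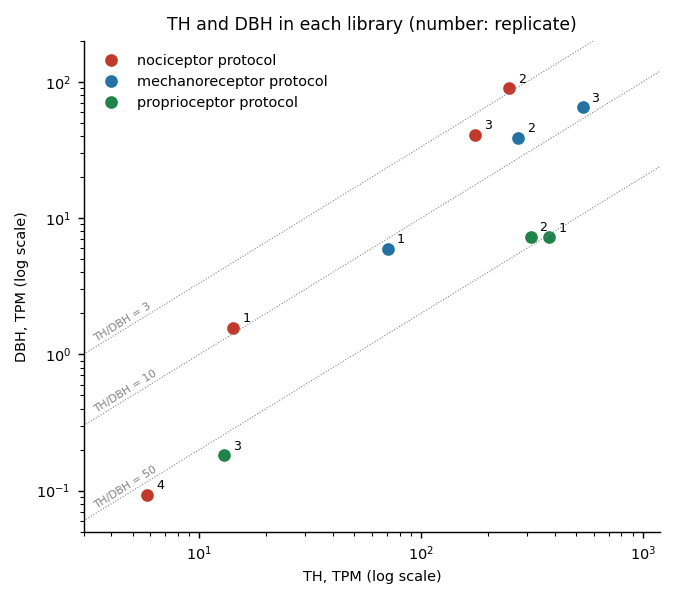
DBH against TH in each library, both in TPM on log axes, coloured by protocol and numbered by replicate. Dotted lines mark TH to DBH ratios of 3, 10 and 50. The 3 proprioceptor libraries lie near the line of 50 (ratios 42.7 to 71.3) and the 3 mechanoreceptor libraries near that of 10 (7.03 to 11.9).

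PNMT, the adrenaline-forming enzyme of chromaffin cells (chromosome 17, 39668019 to 39670475), was low throughout. It had 0.303, 2.94, 2.60 and 0 TPM in nociceptor, 0.128, 1.87 and 1.61 in mechanoreceptor and 1.52, 0.714 and 0.301 in proprioceptor libraries. These rest on 0 to 62 counts per library. The count of 0 in nociceptor library 4, of 27891888 counts, allows up to 3 counts, or 0.108 CPM (counts scaled to library size), for counting error only.

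SLC18A2, the vesicular monoamine transporter of neurons (chromosome 10, 117241114 to 117279430), had 2.60, 37.1, 3.95 and 1.41 TPM in nociceptor libraries 1 to 4. It had 2.36, 8.73 and 12.3 TPM in mechanoreceptor and 6.16, 3.66 and 0.858 TPM in proprioceptor libraries. Nociceptor library 2 stood apart from its group, and without it the nociceptor libraries lay within the range of the other protocols. SLC18A1, the form typical of endocrine cells, on chromosome 8 at 20144855 to 20183136, stayed between 0.143 and 2.37 TPM (3 to 148 counts). It exceeded SLC18A2 in 1 library, nociceptor 4, where the values were 1.98 and 1.41 TPM. There SLC18A1-210, a transcript not annotated as protein-coding, carried 1.72 TPM (87.0% of the gene) on 27 of 33 counts. The protein-coding forms of SLC18A1 thus did not exceed SLC18A2 in that library.

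SLC6A2, the noradrenaline transporter (chromosome 16, 55655988 to 55706192), had 0.240, 6.48, 2.68 and 0 TPM in nociceptor libraries 1 to 4. It had 0.225, 2.28 and 1.88 TPM in mechanoreceptor and 0.620, 0.300 and 0.0156 TPM in proprioceptor libraries. All 3 proprioceptor libraries lay below nociceptor libraries 2 and 3 and mechanoreceptor libraries 2 and 3, as for DBH. DBH exceeded SLC6A2 in all 9 libraries in which SLC6A2 had a count, by 6.51-fold to 34.5-fold.

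CHAT (chromosome 10, 49609095 to 49667942) was the steadiest of the genes with a mean of at least 1 TPM. It had 3.38, 2.89, 3.58 and 3.42 TPM in nociceptor, 4.78, 3.96 and 7.28 in mechanoreceptor and 1.00, 4.33 and 0.445 in proprioceptor libraries. Its SD of log2(TPM + 1) within protocols, 0.566, was larger than in 55.8% of genes, near the middle of all genes. Every mechanoreceptor library lay above every nociceptor library, and proprioceptor libraries 1 and 3 lay below all others.

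SLC18A3, the vesicular acetylcholine transporter, lies inside the CHAT gene, at 49610310 to 49612720 on chromosome 10. It starts 1215 bases after the start of CHAT, within an intron of the transcript CHAT-202, and shares no exon base with any of 12 CHAT transcripts of GENCODE v29. Its TPM was 11.0, 42.2, 27.7 and 46.9 in nociceptor, 21.7, 37.1 and 55.6 in mechanoreceptor and 12.7, 50.8 and 1.15 in proprioceptor libraries. The low library was proprioceptor 3, while nociceptor library 4, lowest for TH and DBH, was among the high ones. SLC18A3 exceeded CHAT in every library, by 2.58-fold to 14.6-fold. Both genes lie on the plus strand, so unspliced CHAT-202 reads cannot be told apart from SLC18A3 reads where they overlap. CHAT-202, the 1 transcript of CHAT that spans SLC18A3, had at most 0.367 TPM. The main form, CHAT-201, starts at 49614037, after the end of SLC18A3.

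SLC5A7, the high-affinity choline transporter (chromosome 2, 107986524 to 108013994), had 1.25, 14.5, 12.1 and 0.257 TPM in nociceptor libraries 1 to 4. It had 0.680, 7.70 and 21.3 TPM in mechanoreceptor and 8.39, 7.85 and 0.140 TPM in proprioceptor libraries. The low libraries were the same 3 as for TH, joined by mechanoreceptor library 1. In nociceptor library 4 the ratio of SLC18A3 to SLC5A7 was 182, in mechanoreceptor library 1 it was 31.9, and in the other 8 libraries it lay between 1.51 and 8.80.

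No gene of the 10 differed between protocols past the threshold. In edgeR's quasi-likelihood test with Benjamini-Hochberg adjustment, 0 of 10 passed between mechanoreceptor and nociceptor libraries, beside 0 of 16130 genes tested (0%). The same counts, 0 of 10 beside 0%, held between proprioceptor and nociceptor and between proprioceptor and mechanoreceptor libraries. At an unadjusted p under 0.05 it was again 0 of 10 in each, beside 8.18%, 6.19% and 1.49% of all genes in the same order. DESeq2, another tool for counts, called 123, 31 and 0 of all genes and 0 of the 10.

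Between mechanoreceptor and nociceptor libraries the largest log2 fold changes were -1.82 ± 1.07 (SE) for SLC18A1 (edgeR adjusted p = 0.628) and 1.23 ± 1.31 for TH (adjusted p = 0.780). CHAT was the 1 gene of the 10 whose TPM ranges did not overlap, beside 9.88% of all genes (8.02% in the same direction), and its log2 fold change was 0.60 ± 0.67 (edgeR adjusted p = 0.792). Leaving out 1 library moved SLC18A1 to -0.75 (without nociceptor library 2) and TH to 0.44 (without mechanoreceptor library 3). The other 7 lay between -0.69 and 0.37. Of the 10 genes, 4 were above and 6 below 0, with a median of -0.17 beside 0.00 for all genes, of which 49.9% were below 0.

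Between proprioceptor and nociceptor libraries SLC6A2 had -2.99 ± 1.70 (edgeR adjusted p = 0.665) and DBH -2.48 ± 1.78 (adjusted p = 0.680). TH, at 1.44 ± 1.32 (edgeR adjusted p = 0.717), was the 1 gene above 0 and became 0.23 without proprioceptor library 1. The median of the 10 was -0.70 beside 0.03 for all genes, of which 47.8% were below 0. SLC18A2 had -1.27 ± 1.20 (edgeR adjusted p = 0.727), which became 0.90 without nociceptor library 2. The ranges of 0 of 10 genes were apart, beside 2.94% of all genes.

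Between proprioceptor and mechanoreceptor libraries DBH had -2.46 ± 1.84, SLC6A2 -2.33 ± 1.71 and CHAT -1.44 ± 0.74, each with an edgeR adjusted p of 1.00. Here 8 of 10 genes were below 0, beside 46.3% of all genes, and 0 of 10 had ranges apart, beside 5.89%. CHAT had the smallest unadjusted p of the 10 in this edgeR comparison, 0.0788. Without proprioceptor library 2 its log2 fold change was -2.74 (edgeR adjusted p = 0.894), and against nociceptor libraries it was then -2.19 (edgeR adjusted p = 0.269). The 3 comparisons share libraries and are not independent of each other.

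**Figure D4:**
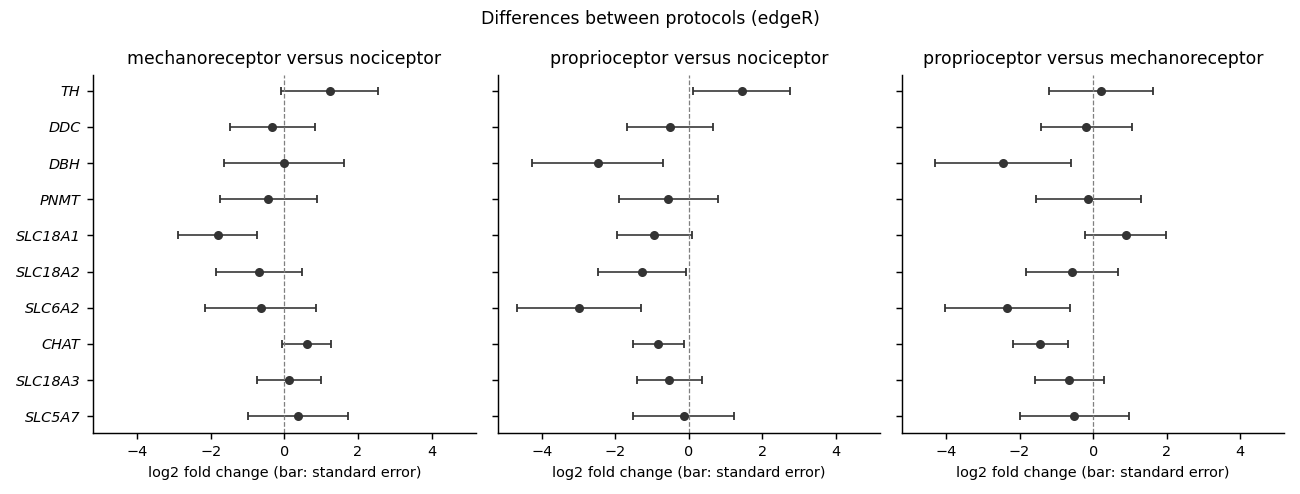
Log2 fold change of the 10 genes in the 3 comparisons of protocols, from edgeR, with bars of 1 standard error on each side. Each value is the first-named protocol minus the second, and 0 of 10 passed the adjusted threshold in any panel. TH lies above 0 in the first and second panels (1.23 and 1.44), and DBH and SLC6A2 lie at or under -2.33 against both other protocols.

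Over the libraries SLC5A7 was more like TH and DBH than like the other acetylcholine genes. Pearson's r of log2(TPM + 1) over the 10 libraries was 0.91 between SLC5A7 and TH and 0.90 between SLC5A7 and DBH, and it was 0.56 between SLC5A7 and SLC18A3 and 0.37 between SLC5A7 and CHAT. CHAT and SLC18A3 had 0.82. TH had 0.85 with DBH, 0.78 with PNMT, 0.75 with DDC, 0.72 with SLC18A2 and 0.63 with SLC6A2, and 0.48 with SLC18A3 and 0.32 with CHAT, so that the values grade into each other. DBH and SLC18A3 had 0.57. SLC18A1, with a mean under 1 TPM, was not included. Its levels took another order, with 1.98 TPM in nociceptor library 4, mostly from SLC18A1-210, and 0.420 TPM in mechanoreceptor library 3. These points share library, depth and cell makeup and are given as a description. The summed catecholamine genes had 10.1 TPM and the summed acetylcholine genes 50.6 TPM in nociceptor library 4, against 400 and 22.1 TPM in proprioceptor library 1.

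Among 13941 genes with a mean of at least 1 TPM, those most like TH included RAMP1, a subunit of calcitonin-family receptors (r = 0.98), and EYA1, a transcriptional coactivator (0.96). For DBH the 3 most like it were PHOX2A (0.96), GRP, which encodes gastrin-releasing peptide (0.95), and KRT18, a keratin (0.94). SLC5A7 had GRP (0.98), CARHSP1 (0.96) and FBXO6 (0.95). The likest of SLC6A2 were STRA6, a retinol transporter (0.96), PENK, the enkephalin precursor (0.95), and FTLP3 (0.93).

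SLC18A2 had TAC3, the neurokinin B precursor (0.96), INSM2 (0.96) and CLEC1B (0.92). These 3 genes and SLC18A2 were all highest in nociceptor library 2, which held 37.1 TPM of SLC18A2 beside at most 12.3 TPM elsewhere. DDC had HTR3A, a serotonin-gated channel (0.93), GPR22 (0.92) and TAC3 (0.91). For CHAT they were SLC31A1, a copper transporter (0.94), HS3ST3B1 (0.93) and NRP1, a semaphorin receptor (0.92). SLC18A3 had SLC18B1 (0.91), STC2 (0.91) and TOR3A (0.90). For PNMT, with at most 62 counts, they were SPOUT1 (0.95), COMMD7 (0.95) and SLC25A1 (0.93), and little can be read from so few counts.

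PHOX2A is a homeodomain factor of autonomic neurons that acts on DBH, and HAND2 is a basic helix-loop-helix factor of noradrenergic neurons. PHOX2A had 0.603, 25.4, 12.5 and 0 TPM in nociceptor, 4.98, 17.4 and 21.7 in mechanoreceptor and 6.36, 10.9 and 0 in proprioceptor libraries. HAND2 had 0.222, 16.1, 4.25 and 0 TPM, then 1.43, 7.94 and 18.5, then 6.81, 12.6 and 0.0731, in the same order. The 3 libraries low for TH and DBH were the 3 lowest for both factors, and nociceptor library 4 had no count of either.

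Sensory neuron genes were present in the same libraries, and POU4F1 and P2RX3 took another order. POU4F1, a regulator of somatosensory neurons, had 8.11, 1.93, 1.60 and 17.8 TPM in nociceptor, 15.4, 10.4 and 4.64 in mechanoreceptor and 3.68, 3.67 and 18.0 in proprioceptor libraries. The 2 libraries without PHOX2A counts had the most POU4F1, and nociceptor libraries 2 and 3, with abundant DBH, had the least. P2RX3, an ATP-gated channel of nociceptors, ran from 54.2 TPM in nociceptor library 2 to 486 in proprioceptor library 3. As a list, the 12 sensory neuron markers had a mean log2(CPM + 1) of 4.43, 3.91, 3.78 and 5.17 in nociceptor libraries. The list had 5.10, 5.34 and 4.63 in mechanoreceptor and 4.69, 4.76 and 5.38 in proprioceptor libraries. Nociceptor library 1, low for TH, thus lay below proprioceptor libraries 1 and 2, with abundant TH. Whether TH and DBH came from autonomic neurons or from sensory neurons was not tested.

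**Figure D5:**
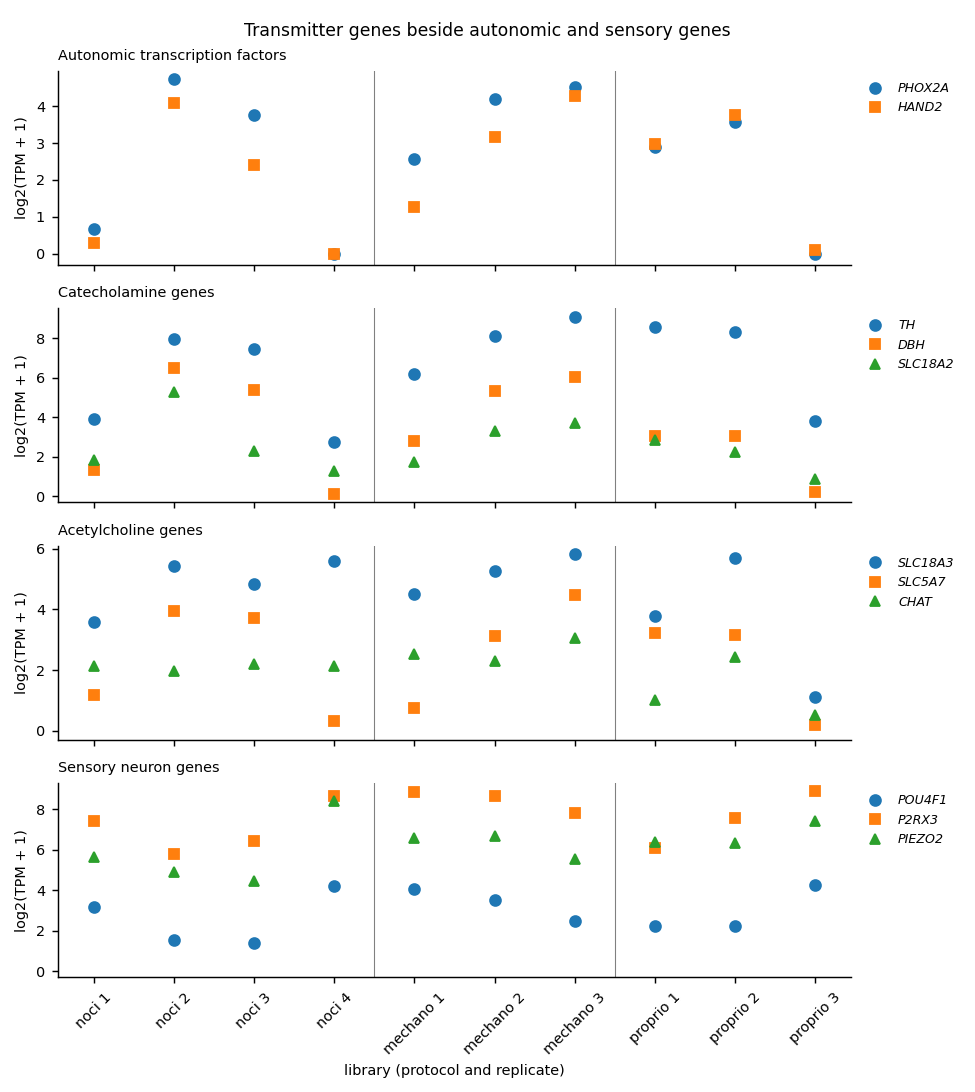
Autonomic transcription factors, catecholamine genes, acetylcholine genes and sensory neuron genes in each of the 10 libraries, as log2(TPM + 1), with vertical lines between protocols. In nociceptor libraries 1 and 4 and proprioceptor library 3, PHOX2A (0 to 0.603 TPM) and TH (5.82 to 14.2 TPM) are at their lowest, while P2RX3 is at 173 to 486 TPM.

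RefSeq promoter windows of 300 bases, from 250 before to 50 after the start site, were found for 6 of the 10 genes, 9 windows in all since CHAT and DDC have several start sites. They were searched on both strands for TGACGTC, the cAMP response element without its last base, and for ATTA, the core that homeodomain factors bind. TH, PNMT, SLC18A1 and SLC6A2 had no window and were not searched. TGACGTC was present in 3 of the 9 windows, those of DBH, SLC18A2 and SLC5A7, and in 3.45% of 35116 promoter windows. ATTA was present in 6 of the 9 and in 50.2% of all windows. Neither window of DDC held TGACGTC. Over the libraries DDC had r of 0.85 with DBH, 0.90 with SLC18A2 and 0.79 with SLC5A7. A relation between matches and levels was not tested. Stretches of 30 bases are shown for the 3 genes with a match, chosen by that match, to show where it lies, with the matches in capitals, on the plus strand of GRCh38.p14.
DBH (chr9:133636182-133636211): TGACGTCcatgtgtcATTAgtgccaATTAg
SLC18A2 (chr10:117241054-117241083): tccctccggccgTGACGTCAgagccggacg
SLC5A7 (chr2:107986435-107986464): accactctcctcTGACGTCcgcctccggat

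In DBH the match begins 181 bases before the start site and is followed by ATTA at 166 and 156 bases before it. In SLC18A2 it begins 48 bases before the start and forms the whole palindrome TGACGTCA, present in 1.85% of windows. In SLC5A7 it begins 77 bases before the start. In GENCODE v29 the first exon of DBH-202 begins earlier, at 133635348, so that the DBH stretch is transcribed in that model. A match describes letters in a window and is no measure of binding.

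The supply and breakdown of the transmitters were measured by lists of related genes, and 0 genes of any of these lists passed the adjusted threshold in any comparison. All 7 genes of the catecholamine cofactor list reached 1 TPM in every library. PCBD1 and QDPR, which regenerate tetrahydrobiopterin, had mean TPM of 215 and 213, PTS had 214, and GCH1, the first enzyme of its synthesis, had 17.8 to 57.6 TPM. The cofactor list summed to 556 to 1008 TPM, a narrow range beside that of TH.

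Among 5 genes of breakdown and other uptake, MAOA and MAOB, the monoamine oxidases, had mechanoreceptor TPM ranges above the nociceptor ranges. Of all genes, 8.02% had ranges apart in this direction. MAOA had 14.7 to 27.2 TPM in mechanoreceptor and 4.33 to 9.17 TPM in nociceptor libraries, a log2 fold change of 1.54 ± 0.37 (edgeR unadjusted p = 0.00173, adjusted p = 0.598). MAOB had 17.3 to 47.3 and 6.08 to 16.6 TPM, a log2 fold change of 1.51 ± 0.55 (edgeR adjusted p = 0.598). Neither passed the adjusted threshold, and 8.18% of all genes had an edgeR unadjusted p under 0.05 in this comparison. SLC6A3, the dopamine transporter, had at most 0.475 TPM in any library.

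Of 8 genes of acetylcholine breakdown and choline handling, ACHE, acetylcholinesterase, had 100.2 to 341 TPM and BCHE, butyrylcholinesterase, 98.1 to 459 TPM. BCHE was lower in mechanoreceptor than in nociceptor libraries by a log2 fold change of -1.14 ± 0.37 (edgeR adjusted p = 0.598) and in proprioceptor libraries by -1.31 ± 0.37 (adjusted p = 0.665), neither past the threshold. Among 16 nicotinic receptor subunits, 11 were tested, and CHRNA3, the main ganglionic alpha subunit, was the highest, at 10.3 to 78.2 TPM. CHRNA7 had log2 fold changes of 1.29 ± 0.44 and 1.52 ± 0.44 against nociceptor libraries in mechanoreceptor and proprioceptor libraries, with edgeR adjusted p of 0.598 and 0.665. All 5 muscarinic receptors were tested, with CHRM3 (19.9 to 91.3 TPM) and CHRM2 (13.7 to 64.7 TPM) the highest. Of 14 adrenergic and dopamine receptors, 9 were tested, and DRD2, at 1.84 to 15.4 TPM, was the highest.

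All 5 dense-core vesicle genes were at 1 TPM or more in every library, with SCG2 the highest, at 280.1 to 1145 TPM. The glutamate transporter SLC17A6 had 38.9 to 181 TPM, above DBH in every library but nociceptor library 2, where the values were 38.9 and 90.1 TPM. TPH2, a tryptophan hydroxylase of serotonin neurons, had 1.45 to 4.47 TPM, and the GABA genes GAD1 and GAD2 had at most 2.15 and 1.54 TPM.

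Markers of other neurons that use these transmitters were measured in the same libraries. Of the spinal motor neuron markers, MNX1 and LHX3 had at most 0.160 and 0.0338 TPM, and this list, led by FOXP1 and ALDH1A2, summed to 2.75 to 18.9 TPM. Of the 8 midbrain dopamine neuron markers, FOXA2, EN1 and PITX3 had at most 0.109 TPM, and NR4A2 had 0.206 to 23.7 TPM. This list summed to 0.612 TPM in proprioceptor library 1, the lowest, and to 24.5 TPM in nociceptor library 3, the highest. In mechanoreceptor library 3 and proprioceptor library 2, 2 of the 8 markers reached 1 TPM. The melanocyte list summed to 2.24 to 27.9 TPM, with TYR, the tyrosinase of pigment cells, at most 0.122. Of the C-fibre low-threshold mechanoreceptor markers, GFRA2 had 15.6 to 387 TPM, SLC17A8 0.176 to 6.72 TPM and TAFA4 at most 2.90 TPM. In proprioceptor library 3, where TAFA4 was highest, TH was at 13.0 TPM. The summed list was highest in nociceptor library 3, at 400 TPM and mostly from GFRA2, where TH was at 174 TPM. It was lowest in proprioceptor library 1, at 19.7 TPM, where TH was at 378 TPM. The mean log2(CPM + 1) of the list, which weighs its genes more evenly, was highest in proprioceptor library 3 (4.61) and lowest in proprioceptor library 1 (2.66). In nociceptor library 3 this mean was 3.91. Whether TH came from such neurons was not tested.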

How the data were processed

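Bulk RNA-seq of 10 libraries was used. Trizol RNA was made into libraries with Clontech Ultra Low v4 and NexteraXT and read as paired 75 nt, per the labels' protocols. Per the submitters' processing notes, kallisto 0.50.1 and GRCh38.p14 were used. The authors deposited estimated counts, rounded to whole numbers, and TPM, per gene and per transcript. The gene tables hold 30358 entries, of which 1 has a blank name (0.733% to 1.66% of counts) and was left out. How transcripts were summed to genes is not given in the sources used here.

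Estimated counts were tested with edgeR 4.0.16 in R 4.3.3: filterByExpr (16130 genes), TMM, 1 quasi-likelihood model with a mean per protocol over all 10 libraries, two-sided, Benjamini-Hochberg over all genes, threshold 0.05. The code was tested on simulated data. Levels are TPM, mean ± SD. Likeness is Pearson's r of log2(TPM + 1) computed from the deposited TPM. No 2 libraries of the same protocol were duplicates (lowest chi-square per degree of freedom 124), and pairs across protocols were not checked. Alternatives included DESeq2 1.42.0 and limma 3.58.1.

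The genes and lists were chosen with earlier results of these data known. The text names all 10 genes, from each list up to 4 genes of highest mean TPM or genes past the threshold, and the 3 genes most like each of the 9 with a mean of at least 1 TPM, except 1 gene not reported here. Other list genes (SLC6A3, GAD1, GAD2, POU4F1, MNX1, LHX3, FOXA2, EN1, PITX3 and TYR) were named after their values were seen. Sequences come from RefSeq (GRCh38.p14) and GENCODE v29 (GRCh38).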

Additional observations from a re-analysis of the deposited data

Results flagged for a closer look

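SLC18A2, the vesicular monoamine transporter, stood out in nociceptor library 2, at 37.1 TPM beside 1.41 to 3.95 TPM in the other nociceptor libraries. The gap to the next library was large for the range of a group of 4 by Dixon's criterion, taken on TPM without a log transform. The 10 genes were examined in the nociceptor group, and chance flags about 1 in 20 groups where values are normally distributed. Skewed TPM need not be, so this rate may not hold here, and the flag was not checked on a log scale. The same library was the highest of the 10 for DDC (17.4 TPM), DBH (90.1 TPM) and SLC6A2 (6.48 TPM).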

How the results depend on the processing

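The 3 counts of genes called stayed at 0 of 10 under all 19 alternative settings. Alternatives were tallied for the 10 transmitter genes. A set of 10 fold changes joined those of at least 1 in size on the log2 scale to CHAT between mechanoreceptor and nociceptor libraries. They kept their direction in 189 of 190 values. Most were picked by size in these same libraries, so a kept direction was likely from the start. The exception was SLC18A2 between proprioceptor and nociceptor libraries, at 0.90 without nociceptor replicate 2 (leaving out 1 library at a time gave -2.61 to 0.90). The other 20 fold changes changed sign in 63 of 380 values. Leaving out 1 library moved TH from 0.44 to 2.03 between mechanoreceptor and nociceptor libraries and from 0.23 to 2.24 between proprioceptor and nociceptor libraries, and SLC18A1 in the former from -2.26 to -0.75. It moved SLC6A2 between proprioceptor and nociceptor libraries from -4.62 to -1.63 and DBH from -3.46 to -1.23, and CHAT between proprioceptor and mechanoreceptor libraries from -2.74 to -0.90. Scaling to pan-neuronal counts shifted the median log2 fold change of all genes to -0.48, -0.77 and -0.27 in the 3 comparisons, and then 2, 1 and 1 of the 10 genes lay above 0, with TH at 0.54 in the first comparison and 0.18 in the second. With the mesenchyme level as a covariate, 9, 4 and 4 lay above 0. The causes were not tested.

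With the replicate number as a block (replicate block), 0 of the 10 genes were called in each comparison. Same-numbered libraries did not consistently deviate together: 4 of 9 pairs had a correlation over 0.1, with a range from -0.69 to 0.56. The numbers were therefore not taken as pairs in the main model. Library names run in sequence by replicate number across the protocols, and whether same-numbered libraries shared a batch was not tested.

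With 3 or 4 libraries a protocol and a common coefficient of variation of 0.550, standard errors of the log2 fold changes ran from 0.67 to 1.84. PNMT, SLC18A1 and SLC6A2 also rest on few counts.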
